A study of Homo sapiens with 6 samples.

Results

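HSF1 and 9 genes of cytosolic heat shock proteins were followed in RNA-seq of A549 cells, an established cell line derived from a human lung adenocarcinoma. The genes were taken by symbol: HSF1, HSPA1A, HSPA1B, HSPA8, HSP90AA1, HSP90AB1, HSPB1, HSPH1, DNAJB1 and BAG3. They are 10 of the 60624 gene rows of the table, and all 10 were among the 14778 genes tested, those whose mean reached 1 TPM. TPM, StringTie's transcript abundance, is a level per transcript length and per library total, so levels can be set side by side between genes but the sequencing depth of a library cannot be read from it. The study compared 3 siCTR samples, which received a control small interfering RNA, with 3 siCEP20 samples, in which an siRNA lowered CEP20, a protein of the centrosome and centriolar satellites. Both groups were A549 cells and both were transfected, for 3 days by the labels. Their field for treatment names a plasmid in both groups, whereas their protocol and the methods name siRNA. The methods give 2 siRNAs against CEP20, and which of them served for RNA-seq is not given in the sources used here. Nothing in the labels says that the samples of a group were separate cultures, so the p-values measure the spread between these samples. Libraries are numbered 1 to 3 within each group, as in the labels, and values are listed in that order.

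The targeted gene was at 29.2, 30.5 and 35.1 TPM in the siCTR libraries and at 16.2, 15.3 and 17.3 TPM in the siCEP20 libraries, lower in each of the latter. The epithelial markers EPCAM, CDH1, KRT8, KRT18 and KRT19 were detected in every library, EPCAM only at 0.834 to 3.85 TPM, whereas PTPRC, PECAM1, COL1A2 and PDGFRB, markers of leukocytes, endothelium and fibroblasts, were at 0.256 TPM or less. ALB, a marker of hepatocytes, ran from 0 to 13.9 TPM. All libraries together showed an offset. The median log2 fold change of the tested genes, siCEP20 against siCTR, was 0.13 with the values as deposited and 9.4e-05 after median-of-ratios scaling, so log2 fold changes are also given relative to that median.

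Heat shock proteins are molecular chaperones. HSP70 proteins bind exposed hydrophobic stretches of unfolded chains in a cycle of ATP hydrolysis that J-domain proteins start and nucleotide exchange factors end, HSP90 dimers take over late-folding clients such as kinases and steroid receptors, and small heat shock proteins hold unfolded chains without using ATP. HSF1 is the transcription factor of the heat shock response. It is kept inactive by chaperones, and when unfolded proteins occupy these it forms trimers that bind heat shock elements, repeats of nGAAn in alternating orientation, in front of chaperone genes. Tumor cells often hold high levels of HSP90, HSP70 and HSPB1 without a heat shock.

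In siCEP20 cells, most of these genes were higher than in siCTR cells. At an adjusted p-value under 0.05 from limma on log2(TPM + 1), 7 of the 10 rose, 0 fell and 3 did not pass. In the whole table, 30.2% of the tested genes were higher by the same rule and 13.2% lower. The share of higher genes was 35.8% at a mean of at least 5 TPM and 34.8% among protein-coding genes. In both of these, 7 of the 10 genes were again higher. HSPB1, HSP90AA1, HSPA8 and BAG3 had the largest increases, HSF1, DNAJB1 and HSP90AB1 smaller ones, and the stress-inducible HSP70 genes HSPA1A and HSPA1B and the HSP110 gene HSPH1 were the 3 that did not pass. The 7 genes that passed were also those in which every siCEP20 library lay above every siCTR library, a pattern found in 38.4% of the tested genes. When the rule also required a fold over 1.5 or under 0.67, only HSPB1 was called higher and 0 of the 10 lower, where the shares in the whole table were 11.2% and 4.61%. The median log2 fold change of the 10 genes was 0.34, or 0.20 relative to all tested genes. In bulk RNA, more cells with a transcript and more of it per cell cannot be told apart.

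**Figure D1:**
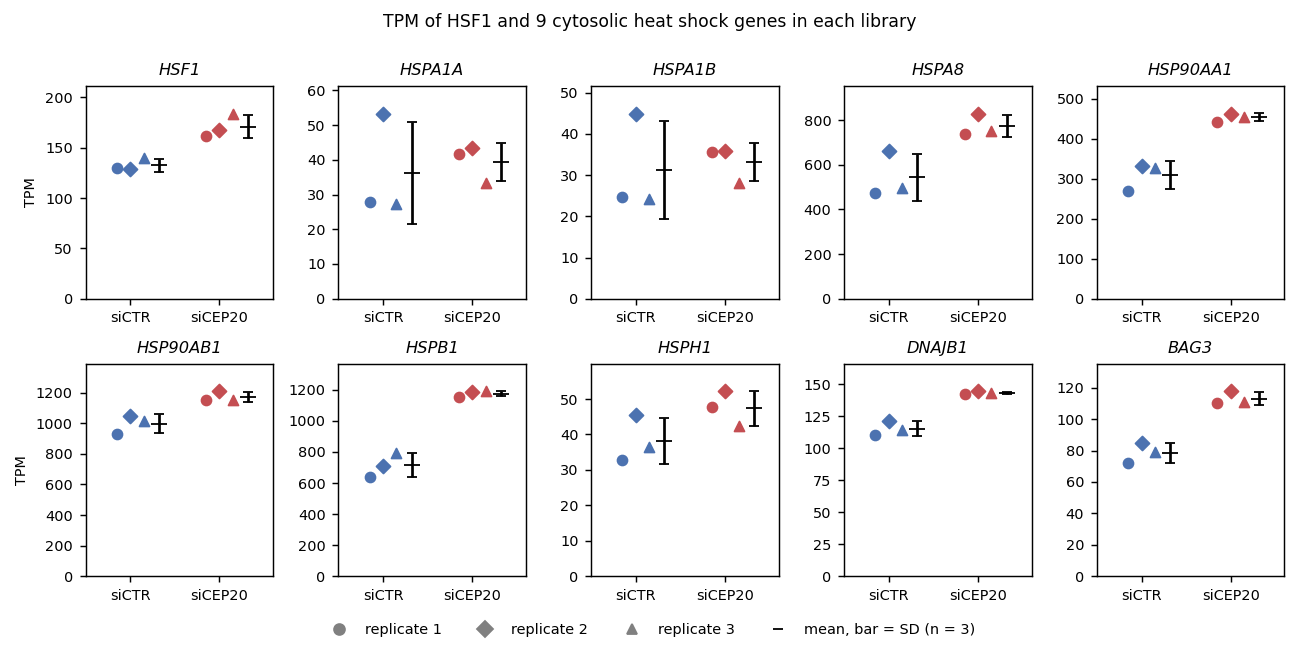
TPM (linear axis from 0) of the 10 genes in each library, with siCTR in blue, siCEP20 in red, 1 symbol for each replicate number, and the mean and SD of 3 libraries in black. The groups lie apart in 7 genes and overlap in HSPA1A, HSPA1B and HSPH1, where siCTR replicate 2 (diamond) is the highest of its group.

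Summed over the 10 genes, the level was 2704, 3231 and 3051 TPM in the siCTR libraries and 4029, 4242 and 4090 TPM in the siCEP20 libraries. These sums were 0.270 to 0.323% and 0.403 to 0.424% of all TPM. The groups did not overlap, and the ratio of the means was 1.38. The sum mostly follows HSP90AB1, HSPB1, HSPA8 and HSP90AA1, the most abundant of the genes. HSP90AB1 led in siCTR cells with a mean of 996 TPM, apart from HSPB1 (714 TPM), which overlapped HSPA8 (544 TPM). In siCEP20 cells HSPB1 (1176 TPM) and HSP90AB1 (1171 TPM) overlapped. Below them the order was the same in both groups, from HSPA8 through HSP90AA1, HSF1, DNAJB1 and BAG3, each apart from the next, to HSPH1, HSPA1A and HSPA1B, which overlapped their neighbours.

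The promoters were searched for the heat shock element because these genes are known targets of HSF1. The windows, from RefSeq (GRCh38.p14), run from 250 bases before to 50 bases after each annotated start, and the motif was GAANNTTCNNGAA or its reverse complement TTCNNGAANNTTC, 13 letters of which 9 are fixed. Both strands were read, and overlapping matches were counted. A window was given for 9 of the 10 genes, not for HSF1. An exact match stood in a window of 3 of them, HSP90AA1, HSP90AB1 and HSPA8, and a match with at most 1 mismatch in 7. Of all genes with a window, 0.608% had an exact match and 7.60% a match with at most 1 mismatch. HSP90AB1 and HSPA8 held 2 exact matches each. One best match of each gene, before its start, is shown, 5′ to 3′ on the strand of the gene, with the motif in capitals. These are matches of letters, not measured binding sites.
HSP90AA1: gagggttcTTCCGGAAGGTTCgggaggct
HSP90AB1: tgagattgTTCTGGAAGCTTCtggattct
HSPA8: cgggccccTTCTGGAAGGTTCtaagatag
DNAJB1: ctggcgggCTCTGGAAGCTTCcgccggac
HSPB1: taacgagaGAAGGTTCCAGATgagggctg
HSPA1A: aaaccctgGAATATTCCCGACctggcagc
HSPA1B: aacccctgGAATATTCCCGACctggcagc
The stretches lie in hg38 at chr14:102087112-102087140 on the minus strand (HSP90AA1, within the span of the gene and in no exon), chr6:44247823-44247851 on the plus strand (HSP90AB1, within its span and in no exon), chr11:123062171-123062199 on the minus strand (HSPA8, in a UTR exon of another HSPA8 transcript) and chr19:14518429-14518457 on the minus strand (DNAJB1, within the spans of DNAJB1 and TECR and in no exon). The other stretches are intergenic on the plus strand, at chr7:76302483-76302511 (HSPB1), chr6:31815429-31815457 (HSPA1A) and chr6:31827625-31827653 (HSPA1B). The first base of the motif stood between position -182 (HSPB1) and position -52 (DNAJB1) relative to the start. BAG3 and HSPH1 had no match with at most 1 mismatch in their windows. Matches outside the windows were not searched for, and whether a match goes with the change of a gene was not tested.

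HSF1 itself (ENSG00000185122), the regulator, rose. Its TPM was 129, 129 and 140 in the siCTR libraries (133 ± 6.45, SD, n = 3) and 162, 168 and 184 in the siCEP20 libraries (171 ± 11.2, SD, n = 3). Every siCEP20 library was above every siCTR library. The log2 fold change was 0.36 (standard error 0.0664, 95% interval 0.21 to 0.52, limma adjusted p = 0.00318), or 0.23 relative to all tested genes, and it was 0.21 with median-of-ratios scaling (adjusted p = 0.026). HSF1 activity is set largely by trimerization and phosphorylation of the protein, which RNA levels do not measure. HSF1 shares 137 exon bases with DGAT1 (mean 29.3 TPM) on the opposite strand, and the methods describe libraries that keep strand and alignment with default settings, while the strand setting of the quantification is not given in the sources used here.

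HSPA8 (ENSG00000109971, chromosome 11 from 123057489 to 123063230, minus strand) encodes HSC70, the constitutive cytosolic HSP70. It was at 472, 663 and 496 TPM in the siCTR libraries and at 737, 827 and 753 TPM in the siCEP20 libraries. The groups lay apart, although siCTR replicate 2 came close to the lowest siCEP20 library. HSPA8 rose with a log2 fold change of 0.52 (standard error 0.12, 95% interval 0.25 to 0.80, limma adjusted p = 0.00913), or 0.39 relative to all tested genes. The call was lost when genes were not filtered on TPM (adjusted p = 0.0606). Without siCTR replicate 2 the log2 fold change was 0.67 (adjusted p = 0.000753).

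HSPA1A (ENSG00000204389, chromosome 6 from 31815543 to 31817946, plus strand) and HSPA1B (ENSG00000204388, chromosome 6 from 31827738 to 31830254, plus strand) encode HSP72, the HSP70 that heat induces most strongly. HSPA1A was at 27.9, 53.2 and 27.3 TPM in the siCTR libraries and at 41.6, 43.5 and 33.2 TPM in the siCEP20 libraries. HSPA1B was at 24.6, 44.9 and 24.3 TPM in the siCTR libraries and at 35.7, 36.0 and 28.0 TPM in the siCEP20 libraries. In both genes siCTR replicate 2 was the highest of all 6 libraries and the other siCTR libraries were the lowest. HSPA1A had a log2 fold change of 0.18 (standard error 0.24, 95% interval -0.36 to 0.73, limma adjusted p = 0.569), which was 0.03 with median-of-ratios scaling. HSPA1B had one of 0.13 (standard error 0.22, 95% interval -0.38 to 0.65, limma adjusted p = 0.652), which turned to -0.01 with median-of-ratios scaling. These intervals include changes in either direction, so that neither an increase nor its absence was shown.

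The 2 genes cannot be fully separated. Their coding sequences of 1923 bases differ at 4 positions, and 69.6% of all stretches of 150 bases, the read length, in the HSPA1A transcript occur unchanged in HSPA1B. Summed, they were at 52.6, 98.1 and 51.6 TPM in the siCTR libraries and at 77.3, 79.5 and 61.2 TPM in the siCEP20 libraries. The sum had a log2 fold change of 0.16 (95% interval -0.37 to 0.69, limma adjusted p = 0.601). A sum depends less than either gene on how reads were split between both. It is not wholly free of the split, because TPM is per transcript length and the transcripts have 2400 (HSPA1A) and 2517 bases (HSPA1B). No stretch of 150 bases in the other 8 genes was shared with a related gene or pseudogene of the families searched. Of 32 pseudogene rows of HSPA8, HSP90, HSPB1 and DNAJB1, 17 were listed at 0 in every library and 3 had a mean of at least 1 TPM, the highest being HSP90AB3P at 5.63 TPM.

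HSP90AA1 (ENSG00000080824, chromosome 14 from 102080742 to 102139699, minus strand) encodes the stress-inducible HSP90 alpha. It was at 269, 332 and 326 TPM in the siCTR libraries and at 443, 462 and 456 TPM in the siCEP20 libraries. The groups were well apart, and the siCEP20 libraries were close to each other. HSP90AA1 rose with a log2 fold change of 0.56 (standard error 0.0811, 95% interval 0.37 to 0.74, limma adjusted p = 0.00109), or 0.43 relative to all tested genes. It shares 197 exon bases with WDR20 (mean 27.2 TPM) on the opposite strand.

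HSP90AB1 (ENSG00000096384, chromosome 6 from 44246166 to 44253888, plus strand) encodes HSP90 beta, the constitutive form. It was at 927, 1047 and 1014 TPM in the siCTR libraries and at 1155, 1208 and 1151 TPM in the siCEP20 libraries. The groups lay apart, but the gap was smaller than in HSP90AA1. HSP90AB1 had a log2 fold change of 0.24 (standard error 0.0563, 95% interval 0.11 to 0.36, limma adjusted p = 0.0109), or 0.10 relative to all tested genes. The call was lost with median-of-ratios scaling (0.08, adjusted p = 0.163), when length and GC content of transcripts were corrected for (0.10, adjusted p = 0.095) and with no filter on TPM (adjusted p = 0.0529). Quantile normalization raised the log2 fold change to 0.43 (adjusted p = 0.00063).

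HSPB1 (ENSG00000106211, chromosome 7 from 76302673 to 76304295, plus strand) encodes HSP27, a small heat shock protein that also binds actin and intermediate filaments. It was at 639, 710 and 794 TPM in the siCTR libraries (714 ± 77.6, SD, n = 3) and at 1154, 1183 and 1189 TPM in the siCEP20 libraries (1176 ± 18.6, SD, n = 3). The lowest siCEP20 library was far above the highest siCTR library. The log2 fold change of 0.72 (standard error 0.0754, 95% interval 0.55 to 0.90, limma adjusted p = 0.000245), a fold of 1.65, was the largest of the 10 genes, and it was 0.59 relative to all tested genes. It stayed past the test in all 15 alternatives, between 0.57 (median-of-ratios scaling) and 0.84 (quantile normalization). With median-of-ratios scaling the log2 fold change was thus just under the one that a fold of 1.5 requires.

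The co-chaperones of HSP70 did not all pass. HSPH1 (ENSG00000120694, chromosome 13 from 31134973 to 31162388, minus strand) encodes HSP110, a nucleotide exchange factor that helps HSP70 to take apart aggregates. It was at 32.8, 45.5 and 36.5 TPM in the siCTR libraries and at 47.6, 52.1 and 42.4 TPM in the siCEP20 libraries, so that siCTR replicate 2 was above the lowest siCEP20 library. The log2 fold change was 0.31 (standard error 0.13, 95% interval 0.02 to 0.60, limma adjusted p = 0.0782), or 0.18 relative to all tested genes. It was 0.16 with median-of-ratios scaling (adjusted p = 0.286) and 0.08 with length and GC content corrected for (adjusted p = 0.576).

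DNAJB1 (ENSG00000132002, chromosome 19 from 14514769 to 14560391, minus strand) encodes HSP40, the J-domain protein that delivers clients to HSP70. It was at 110, 121 and 114 TPM in the siCTR libraries and at 142, 144 and 143 TPM in the siCEP20 libraries, where the values hardly differed. DNAJB1 rose with the same log2 fold change of 0.31 as HSPH1 but a smaller error (standard error 0.0557, 95% interval 0.18 to 0.44, limma adjusted p = 0.00292), or 0.18 relative to all tested genes. Both genes were at 0.16 with median-of-ratios scaling, where DNAJB1 still passed (adjusted p = 0.0341), and DNAJB1 was at 0.21 with length and GC content corrected for. It shares 525 exon bases with TECR (mean 252 TPM), which is more abundant and lies on the opposite strand, so any reads counted without strand could belong to either.

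BAG3 (ENSG00000151929, chromosome 10 from 119651380 to 119677819, plus strand) encodes a nucleotide exchange factor that links HSP70 and small heat shock proteins to autophagy. It was at 72.2, 84.8 and 79.0 TPM in the siCTR libraries and at 111, 118 and 111 TPM in the siCEP20 libraries. The groups were well apart. BAG3 rose with a log2 fold change of 0.52 (standard error 0.0715, 95% interval 0.35 to 0.68, limma adjusted p = 0.000866), or 0.39 relative to all tested genes.

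One siCTR library bore on several of these results. Replicate 2 was the highest siCTR library in 8 of the 10 genes, all but HSF1 and HSPB1, where 34.9% of the tested genes had it highest. Against the mean of siCTR replicates 1 and 3 it was 1.93 times as high in HSPA1A, 1.83 times in HSPA1B, 1.37 times in HSPA8 and 1.31 times in HSPH1. These 4 genes were at least 0.3 higher in it on the log2 scale, a mark set after the values were seen, as were 8.13% of the tested genes, and the median difference over all tested genes was 0.02. The other HSP70 and HSP110 genes differed in this. HSPA2 stood at 29.2, 44.03 and 28.1 TPM in the siCTR libraries, 0.60 higher in replicate 2 on the log2 scale, and HSPA1L, under 1 TPM on average, was 0.40 higher. HSPA6 (0.23), HSPA4 (0.10), HSPA4L (0.07) and HSPA14 (-0.08) were under the mark. The excess was not confined to these families. Among the tested genes of the lists below, DNAJA1 (0.33) and BAG2 (0.30) were over the mark as well. DNAJB5 (-0.36) and GADD45A (-0.30) were lower in replicate 2 by at least as much. By the same mark siCTR replicate 1 was higher than the mean of the other siCTR libraries in 4.82% of the tested genes and siCTR replicate 3 in 10.2%, and in 0 of the 10 genes for either.

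Without siCTR replicate 2, all 10 genes were higher at an adjusted p-value under 0.05, as were 26.0% of the tested genes (3844), against 30.2% with all libraries. The log2 fold change was then 0.49 for HSPA1A (limma adjusted p = 0.0194), 0.42 for HSPA1B (adjusted p = 0.0332) and 0.44 for HSPH1 (adjusted p = 0.0172). Without siCTR replicate 1 or 3 instead, HSPA1B was at -0.0017 and -0.01. The labels give no reason to leave replicate 2 out, and the calls with all 6 libraries are the ones reported.

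**Figure D2:**
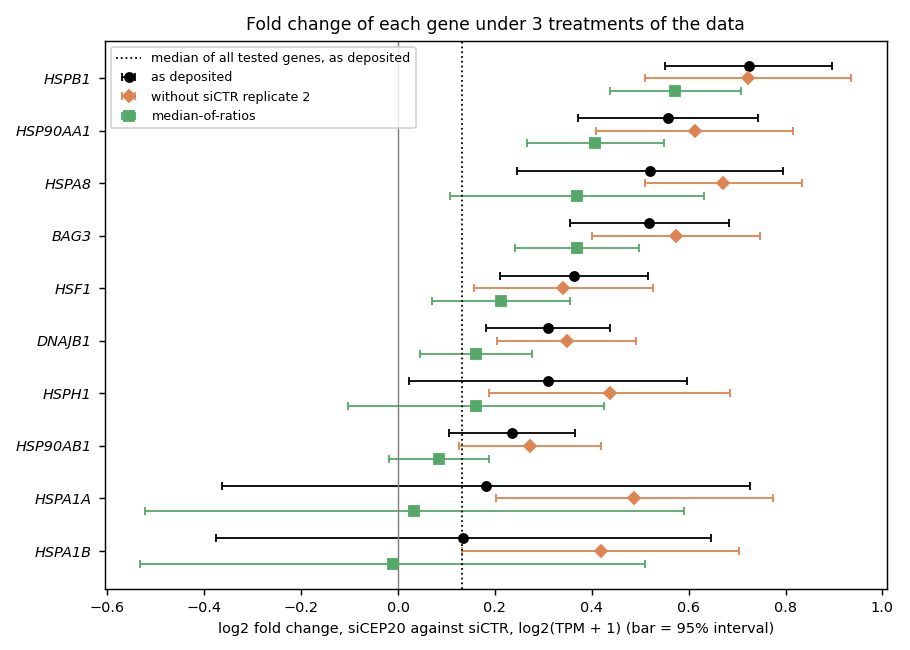
Log2 fold change (siCEP20 against siCTR, log2(TPM + 1) scale) of the 10 genes with 95% intervals from limma, for the values as deposited (black), without siCTR replicate 2 (orange) and after median-of-ratios scaling (green). The dotted line marks the median of all tested genes, 0.13, and the intervals of HSPA1A and HSPA1B, which include 0 with all 6 libraries, lie above 0 without siCTR replicate 2.

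Ratios within a library do not depend on the scale between libraries, and 6 were compared by a two-sided exact permutation test, in which 3 libraries against 3 allow no p below 0.1. HSP90AA1 stood to HSP90AB1 as 0.290, 0.317 and 0.322 in the siCTR libraries and as 0.383, 0.383 and 0.396 in the siCEP20 libraries. The share of the inducible form was thus higher in every siCEP20 library (log2 difference 0.32, exact p = 0.1, adjusted p = 0.3 over the 6 ratios). HSPH1 stood to HSPA8 as 0.0695, 0.0686 and 0.0737 in the siCTR libraries and as 0.0646, 0.0630 and 0.0563 in the siCEP20 libraries, lower in each (log2 difference -0.20, exact p = 0.1, adjusted p = 0.3). In this ratio siCTR replicate 2 lay beside the other siCTR libraries. The sum of HSPA1A and HSPA1B against HSPA8 had a log2 difference of -0.36 with overlapping groups (exact p = 0.2, adjusted p = 0.4), and DNAJB1 against HSPA8 one of -0.21 (exact p = 0.3, adjusted p = 0.45). BAG3 against HSPA8 and DNAJB1 against HSPH1 had differences of 0.0025 and -0.0039 (exact p = 1 for both). Without siCTR replicate 2 the difference was -0.20 for the sum of HSPA1A and HSPA1B against HSPA8 and -0.32 for DNAJB1 against HSPA8. It was then -0.09 for BAG3 against HSPA8 and -0.10 for DNAJB1 against HSPH1.

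**Figure D3:**
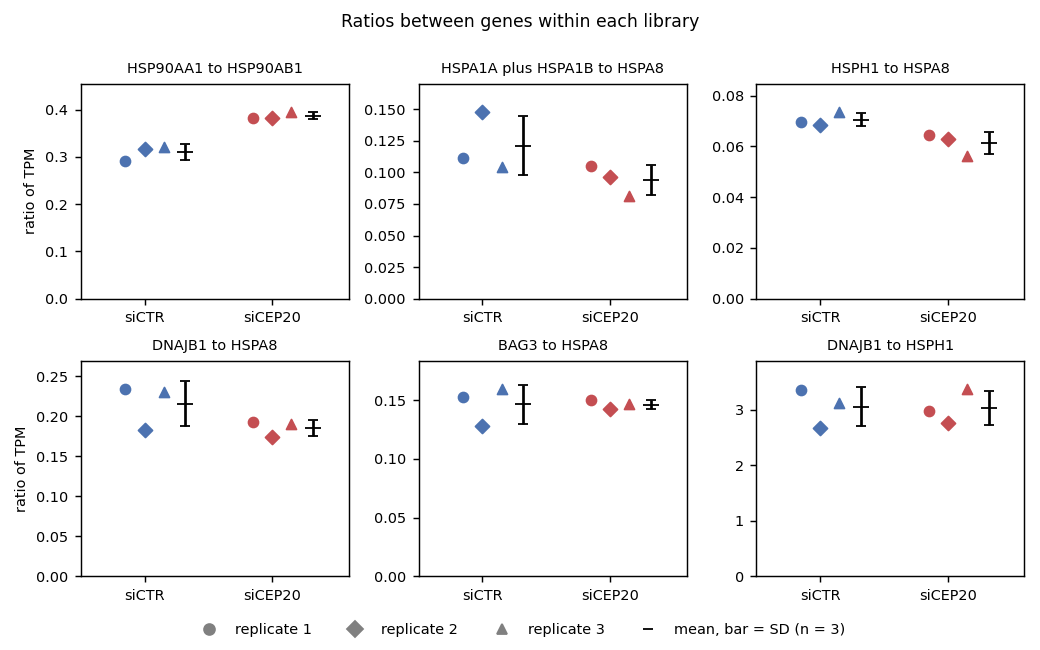
Ratios of TPM between genes within each library (linear axes from 0), with siCTR in blue, siCEP20 in red, 1 symbol for each replicate number and the mean and SD of 3 libraries in black. HSP90AA1 to HSP90AB1 is higher and HSPH1 to HSPA8 lower in every siCEP20 library, and the groups overlap in the other 4 ratios.

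The other genes of the chaperone system were read from 9 lists of 91 genes in all, described here without the 10 genes above. Counts of each list stand beside the shares of all tested genes. These shares were 30.2% higher and 13.2% lower as deposited, and 20.1% higher and 21.6% lower with median-of-ratios scaling. Among the regulators, HSF2, a partner of HSF1 in mixed trimers, rose from 8.54 ± 0.740 to 11.3 ± 0.323 TPM (log2 fold change 0.37, limma adjusted p = 0.0144, lost with quantile normalization at 0.0657). HSBP1, a small protein that binds HSF1 trimers, fell from 28.7 ± 1.53 to 22.0 ± 1.12 TPM (-0.37, limma adjusted p = 0.00563). HSF4 did not pass, nor did HSBP1L1 as deposited (-0.20), which was lower with median-of-ratios scaling (-0.35, adjusted p = 0.0162) and quantile normalization (-0.33, adjusted p = 0.0189). These were 1 higher and 1 lower of 4 tested.

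Of the other cytosolic HSP70 and HSP110 genes, 0 of 5 tested passed in either direction by limma, with log2 fold changes from 0.04 to 0.40. In the whole table, 30.2% of the tested genes were higher and 13.2% lower. HSPA4, another HSP110, had 0.17 (limma adjusted p = 0.061) and HSPA2 0.40 (limma adjusted p = 0.073), and without siCTR replicate 2 HSPA2 had 0.60 (adjusted p = 0.0029). HSPA6, an HSP70 gene that is nearly silent without a strong heat shock, stood at 0.945, 1.06 and 0.580 TPM in the siCTR libraries and at 0.855, 1.21 and 1.53 TPM in the siCEP20 libraries. Its groups overlapped at this low level. Of 9 other genes listed with the small heat shock proteins, only HSPB8 and HSPB11 were abundant enough to be tested. Neither passed as deposited (log2 fold changes -0.06 and -0.07). HSPB8 was lower with median-of-ratios scaling (-0.21, limma adjusted p = 0.0483) and quantile normalization (-0.21, adjusted p = 0.0443). HSPB2, HSPB3, HSPB7 and CRYAA were listed at 0 in every library, and CRYAB, a small heat shock protein of muscle and lens, was at 0.398 ± 0.165 TPM in siCTR and 1.32 ± 0.372 TPM in siCEP20 libraries, below the level for testing.

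The HSP90 co-chaperones that passed were all higher as deposited. Of 18 genes for HSP90 co-chaperones and adaptors, 7 rose and 0 fell, where 30.2% of all tested genes were higher and 13.2% lower. ST13, which joins HSP70 and HSP90, rose from 114 ± 8.65 to 171 ± 5.56 TPM (log2 fold change 0.58, limma adjusted p = 0.000408), NUDC, a co-chaperone of dynein regulators, from 146 ± 5.87 to 203 ± 7.30 TPM (0.47), and AHSA1, the activator of the HSP90 ATPase, from 177 ± 9.88 to 237 ± 4.67 TPM (0.42). CDC37, CHORDC1, TOMM34 and STIP1 were the other 4. The median of this list, 0.12, was -0.01 relative to all tested genes, so the list as a whole lay at the level of the table. With median-of-ratios scaling 6 were higher and 5 lower, where 20.1% and 21.6% of all tested genes were, and STIP1 no longer passed.

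Of 12 other genes tested on the J-domain protein list, 4 rose (DNAJC2, DNAJB2, DNAJC7 and DNAJC21) and DNAJC9 fell. Their median was 0.07 relative to all tested genes, of which 30.2% were higher and 13.2% lower. With median-of-ratios scaling 2 of these 12 were higher and 4 lower, where 20.1% and 21.6% of all tested genes were. DNAJC7 and DNAJC21 no longer passed with it. DNAJC21 also did not pass with quantile normalization or with length and GC content corrected for. DNAJC2, a J-domain protein on the ribosome, rose from 19.9 ± 1.28 to 28.4 ± 0.406 TPM (0.50, limma adjusted p = 0.00127). It shares 1400 exon bases with PMPCB (mean 59.4 TPM) on the opposite strand. Other list genes overlap an opposite-strand gene as well, such as DNAJC9 (1819 exon bases, FAM149B1), SQSTM1 (1582, MRNIP) and TRAP1 (1477, DNASE1). Of 6 other BAG family and nucleotide exchange factor genes, BAG4 rose, and BAG1 and HSPBP1 fell. HSPBP1, an exchange factor and inhibitor of HSP70, went from 118, 114 and 108 TPM in the siCTR libraries to 72.3, 70.5 and 70.6 TPM in the siCEP20 libraries. Its log2 fold change of -0.67 (limma adjusted p = 0.000104) was opposite in sign to that of BAG3 (0.52), and BAG4 had 0.52 (limma adjusted p = 0.0036).

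The remaining lists held genes that rose and genes that fell. Of 12 organelle chaperone genes, HSPD1, GRPEL2 and TRAP1 of mitochondria rose and HSPE1 and HSPA5 fell. Of all tested genes, 30.2% were higher and 13.2% lower. With median-of-ratios scaling 2 of these 12 were higher and 6 lower, where 20.1% and 21.6% of all tested genes were. TRAP1 lost its call with that scaling, with quantile normalization, with length and GC content corrected for and without siCTR replicate 2 (adjusted p from 0.0528 to 0.324). GRPEL2 lost its call with length and GC content corrected for. HSPD1, the mitochondrial HSP60, rose from 546 ± 31.4 to 733 ± 54.5 TPM (0.42), while HSPE1, its partner HSP10, fell from 376 ± 42.5 to 282 ± 20.5 TPM (-0.41). The 2 genes are transcribed away from each other and share 135 exon bases, and HSPE1 shares 192 exon bases with the readthrough gene HSPE1-MOB4, listed at 33.2 TPM in siCTR replicate 2 and at 0 in the other libraries. HSPA5, the HSP70 of the endoplasmic reticulum, fell from 3176 ± 357 to 2600 ± 125 TPM (-0.28, limma adjusted p = 0.0213), a direction that turned to 0.07 with quantile normalization. Of 20 other genes known to be induced by HSF1 upon heat, 5 rose and 3 fell, with a median of -0.08 relative to all tested genes. Among those that rose were AHSA1, CHORDC1, STIP1 and HSPD1, already counted in the lists above. IER5, a regulator of HSF1 dephosphorylation, fell from 51.3 ± 4.32 to 36.2 ± 2.75 TPM (-0.49, limma adjusted p = 0.00257). With median-of-ratios scaling 3 of these targets were higher and 8 lower, where 20.1% and 21.6% of all tested genes were. Quantile normalization gave 6 higher and 5 lower (21.4% and 19.9% of all tested genes). After the length and GC correction 5 were higher and 6 lower (19.9% and 21.3% of all tested genes). Of 9 other stress genes, the metallothioneins MT1X (0.86) and MT2A (0.52) rose, and SQSTM1, the autophagy receptor p62, fell from 2823 ± 80.2 to 1898 ± 50.5 TPM (-0.57, limma adjusted p = 7.42e-05). With median-of-ratios scaling 2 of these 9 were higher and 4 lower, where 20.1% and 21.6% of all tested genes were. DDIT3, HMOX1 and TXNRD1 were the added lower ones.

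**Figure D4:**
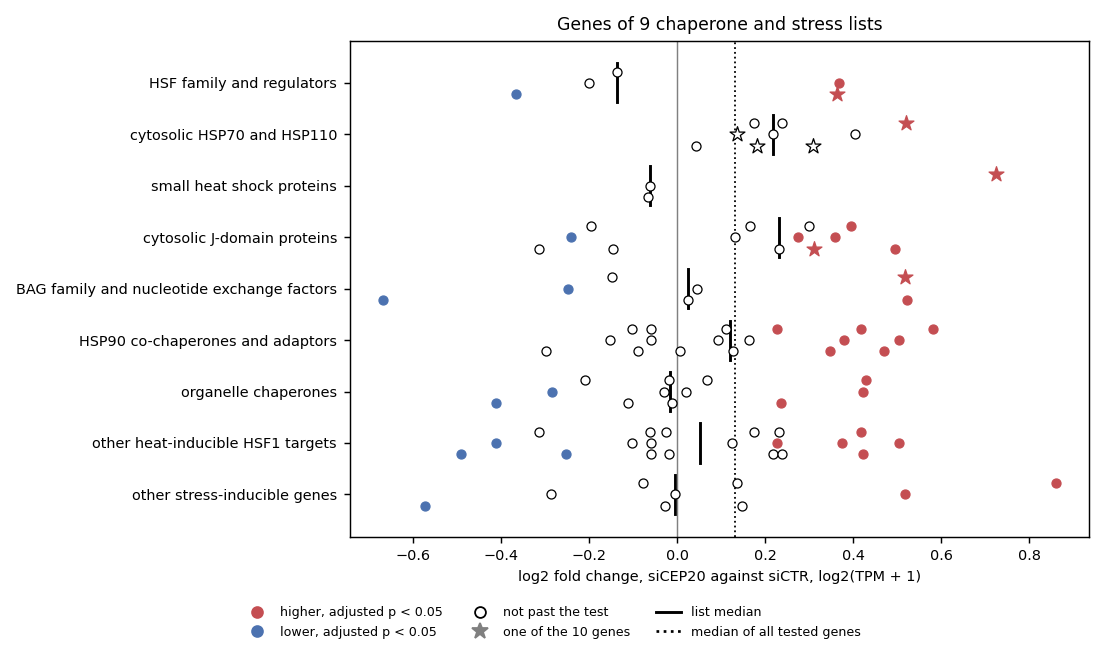
Log2 fold change (siCEP20 against siCTR, log2(TPM + 1) scale) of each tested gene of the 9 lists. Stars mark those of the 10 genes that are on a list, and HSP90AA1 and HSP90AB1 are on none. Red is higher and blue lower at a limma adjusted p under 0.05, and open symbols are genes that did not pass. Short black lines mark list medians with the starred genes included, and the dotted line the median of all tested genes, 0.13. A gene of 2 lists appears in both, and the vertical scatter within a list has no meaning.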

How the data were processed

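RNA-seq of 3 siCTR and 3 siCEP20 samples of A549 cells was used. The authors trimmed reads with fastp 0.20.1, aligned them to hg38 with HISAT2 2.1.0, quantified genes with StringTie 2.0 and deposited TPM for each Ensembl gene, per the labels and the methods. The annotation release is not given in the sources used here. TPM keeps no read counts, so depth is unknown and precision rests on 3 replicates. Symbols came from GENCODE release 44 (60370 of 60624 rows). Genes whose mean reached 1 TPM were tested on log2(TPM + 1), which understates the change of low genes, with limma 3.58.1 (R 4.3.3, eBayes with a trend, no replicate term) and Benjamini-Hochberg adjustment. A call also needed a fold change over 1.5 or under 0.67. Named were CEP20, the 10 genes and, in each list, the other genes with the smallest adjusted p. CRYAB, HSPA6 and the remaining list genes were named after their values were seen, and 1 list gene is counted but not reported here. The 10 genes and all lists were chosen with earlier results of these data known. Promoters were read with Python 3.11.15. Steps were tested on simulated data.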

Additional observations from a re-analysis of the deposited data

How the results depend on the processing

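HSF1, HSP90AA1, HSPB1, DNAJB1 and BAG3 stayed past the limma test in all 15 alternatives. Depth is unknown, and with 3 libraries a group the intervals of HSPA1A and HSPA1B span changes in either direction. The number of the 10 genes that were higher was 7 to 10 when 1 library was left out, where 22.6 to 29.3% of the tested genes were higher (3344 to 4325). It was 6 with median-of-ratios scaling (20.1% of the tested genes), 6 with length and GC content corrected for (19.9%) and 5 with no filter on low TPM (12.4% of 28974 genes, 3591). None of the 10 was lower in any of these. HSPA1B turned to -0.0114 with median-of-ratios scaling, to -0.0017 without siCTR replicate 1 and to -0.0115 without siCTR replicate 3, and was 0.4182 without siCTR replicate 2. Over all tested genes, 4457 were higher and 1944 lower, and 1659 were called higher and 682 lower. These counts were 2963, 3185, 894 and 1103 with median-of-ratios scaling. With quantile normalization 2938 were lower and 923 called higher, and after the length and GC correction 2938 were higher, 3143 lower and 902 called higher. With no fold change threshold 4457 and 1944 were called, and with a fold change of 2, 261 and 147. The alternatives differ in scale, filter or samples, and the cause of these shifts was not tested.

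Whether the replicate numbers pair the samples could not be told. The deviations of same-numbered libraries had correlations of 0.157, -0.06 and -0.06. Libraries of different number reached 0.170 (siCTR replicate 2 with siCEP20 replicate 3). With the replicate number as a block, 8 of the 10 genes were higher, HSPH1 passing at an adjusted p of 0.0323 from limma, with 4274 genes higher and 1857 lower in all, 1654 of them called higher and 694 called lower.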
